A study of Mus musculus with 26 samples.

Results

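The 52 genes described here encode the kinases, cyclins, kinetochore proteins, spindle motors and chromosome-condensing proteins that cells use in G2 and mitosis. They were taken as a list of symbols by their role in the cell cycle, and all 52 were found by symbol among the 55341 genes counted in each library and passed the filter on low counts. RNA-Seq libraries, 26 in all, came from C2C12 cells, mouse myoblasts that stop dividing and fuse into myotubes once serum is withdrawn. In the siRNA experiment (18 libraries, 3 per group), cells transfected with a control siRNA (siCtrl) or with siSMYD3#1 or siSMYD3#2, which target the histone lysine methyltransferase gene Smyd3, were collected at confluence in growth medium (0 h) and after 24 h in differentiation medium. In the overexpression experiment (8 libraries, 2 per group), SMYD3 CL5, a stable line made from 1 retrovirally transduced clone that expresses tagged SMYD3 from pREV, was compared with cells carrying the empty pREV vector at the same times. All groups were C2C12 cells without a genetic deletion. The study describes 2 siRNA transfections, the first in proliferating cells and the second 24 h later, as differentiation was induced. It does not state whether the 0 h cells had received the second, so time and number of transfections may go together. The comparisons address how mitotic genes behaved as these cells entered differentiation and whether a change in SMYD3 altered that course.

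A dividing cell enters mitosis when CDK1, bound to cyclin A or cyclin B, is dephosphorylated by the CDC25 phosphatases, while Polo-like and Aurora kinases act on centrosomes, kinetochores and the cleavage furrow. The spindle assembly checkpoint holds the cell in metaphase until all kinetochores are attached to microtubules, after which the anaphase-promoting complex (APC/C) with CDC20 marks securin and cyclin B for destruction. Most genes of this programme are transcribed together in G2 through the MuvB complex with B-MYB and FOXM1. In cells that have left the cycle they are held down by the DREAM complex at a short promoter element, the CHR. The CCAAT box, another short promoter element, was searched for as well. Muscle differentiation requires cell cycle exit, and myotube nuclei do not divide.

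The siRNA libraries held 14315193 to 60398170 counts each, and the overexpression libraries 21124675 to 67853386. In every siRNA group 1 library was made from TRIzol-extracted RNA and 2 from NucleoSpin-extracted RNA. The TRIzol library is library 1 in each of these groups except siSMYD3#2 at 24 h, where it is library 3, and the study's sample table places the TRIzol libraries at an earlier passage, so extraction and passage cannot be told apart. Smyd3 itself lay between 5.37 and 9.65 CPM (counts scaled to a common library size with edgeR's TMM method) with siSMYD3#2 and between 17.8 and 21.6 CPM in siCtrl, and fell at 24 h (log2 fold change -1.51 ± 0.17 (SE), edgeR adjusted p = 5.06e-05). With siSMYD3#1 it lay between 15.1 and 19.3 CPM and did not pass the test (log2 fold change -0.24 ± 0.16 (SE), edgeR adjusted p = 0.414). These counts alone thus showed no detected knockdown of the mRNA with siSMYD3#1. In separate experiments the study also followed Smyd3 mRNA by qPCR and SMYD3 protein by western blot after knockdown. In SMYD3 CL5 the counts of the gene at 24 h did not pass the test either (log2 fold change 0.36), and they cover only reads that align to the mouse gene. The myoblast marker Des was at 67.3 to 139.8 CPM in the TRIzol siRNA libraries and at 842 to 1506 CPM in the NucleoSpin ones. Of 11 markers of other cell types (immune, endothelial, epithelial, adipose, glial and liver), 2 were high enough to test, and the summed level of the list lay between 2.67 and 7.54 CPM over all 26 libraries. These are bulk RNA libraries, in which fewer dividing cells and less mitotic RNA per cell cannot be told apart.

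The promoters of the 52 genes are shown because the CHR element is the sequence by which this programme is usually recognised. RefSeq promoters on GRCm38.p6 (250 bases before to 50 bases after each annotated start) were present for 43 of the 52 genes, with 46 promoters in all, and the table of all genes held 32851 promoters. The CHR was searched on both strands as TTTGAA or TTCGAA, and the CCAAT box as CCAAT. CHR letters occurred in 38 of the 46 promoters (82.6%) and in 19.2% of all promoters, and CCAAT letters occurred in 76.1% and 37.4% respectively. Of 59 promoters of other G2 and M phase genes, a separate list described below, 55.9% held CHR letters and 64.4% CCAAT letters. In 36 S phase promoters the shares were 16.7% and 61.1%. The excess of CHR letters was thus shared with other G2 and M phase genes, and that of CCAAT letters with S phase genes too. In myoblast and early myotube promoters CCAAT letters were rarer than over all promoters. Both motifs together were found in 69.6% of the mitotic promoters and in 7.52% of all promoters. E2F sites (the letters TTCGCGC or the letters TTGGCGC, and likewise the letters TTCCCGC or the letters TTGCCGC) were present in 19.6% against 9.57%, and the letters CCCTCC or GAGGGG in 45.7% against 48.1%. A CHR overlapped another of these motifs in 1 mitotic promoter.

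**Figure D1:**
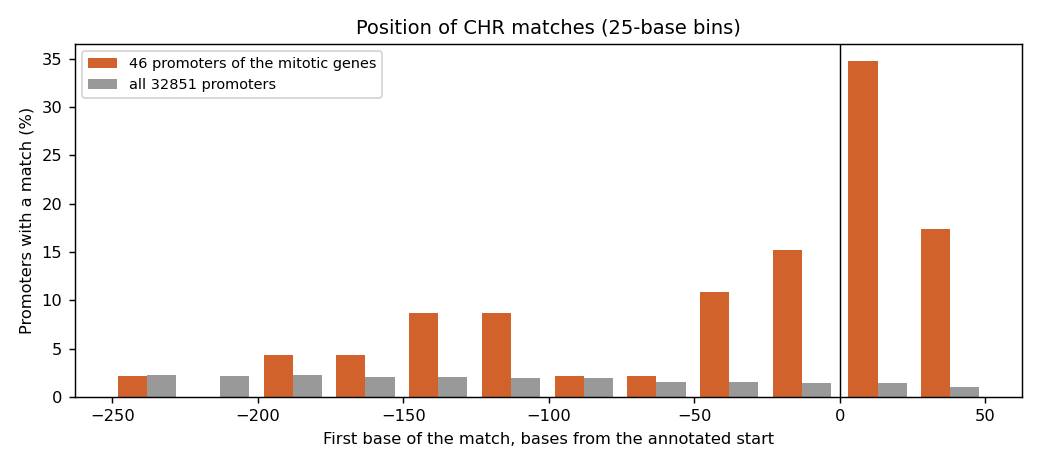
Share of promoters (percent) whose CHR letters begin in each 25-base bin, against distance from the annotated start in bases; orange bars are the 46 promoters of the mitotic genes and grey bars all 32851 promoters. From base 1 to 25 after the start, 16 mitotic promoters (34.8%) had a match against 1.43% of all promoters.

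CHR matches lay near the start of transcription. Of the 52 matches found in the 46 promoters, 27 began between 50 bases before and 20 bases after the start, so many lie outside the 100 bases before the start that are printed here. Among the genes whose levels are given by library, the following had CHR letters in that upstream window. In each line the window is on GRCm38.p6, reads 5′ to 3′ on the strand of the gene and ends at the base before the annotated start, and capitals mark CHR and CCAAT letters on either strand.
Cdk1, chr10:69352913-69353012, minus strand: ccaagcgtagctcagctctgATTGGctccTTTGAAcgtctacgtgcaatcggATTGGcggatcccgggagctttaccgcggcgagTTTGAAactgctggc
Cdc20, chr4:118437344-118437443, minus strand: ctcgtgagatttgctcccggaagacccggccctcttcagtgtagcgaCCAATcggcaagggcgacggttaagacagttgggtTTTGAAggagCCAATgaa
Ube2c, chr2:164769829-164769928, plus strand: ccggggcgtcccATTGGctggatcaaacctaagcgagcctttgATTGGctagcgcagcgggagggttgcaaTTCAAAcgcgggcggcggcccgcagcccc
Bub3, chr7:131560270-131560369, plus strand: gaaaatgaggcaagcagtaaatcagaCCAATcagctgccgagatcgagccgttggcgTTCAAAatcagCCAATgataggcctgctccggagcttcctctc
Prc1, chr7:80294376-80294475, plus strand: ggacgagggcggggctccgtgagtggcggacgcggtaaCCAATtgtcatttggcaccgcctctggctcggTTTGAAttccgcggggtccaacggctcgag
Kif11, chr19:37376282-37376381, plus strand: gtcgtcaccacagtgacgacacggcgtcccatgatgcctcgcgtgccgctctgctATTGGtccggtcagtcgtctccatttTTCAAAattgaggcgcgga
Top2a, chr11:99024190-99024289, minus strand: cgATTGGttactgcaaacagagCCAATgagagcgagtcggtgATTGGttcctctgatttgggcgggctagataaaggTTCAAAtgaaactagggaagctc
Mki67, chr7:135716380-135716479, minus strand: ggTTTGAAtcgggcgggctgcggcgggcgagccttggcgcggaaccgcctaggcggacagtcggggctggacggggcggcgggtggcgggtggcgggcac
Cdk1 was alone among these 8 in holding 2 CHR matches, and Mki67 was alone in holding no CCAAT letters in the window.

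In 8 of the 43 genes, no CHR letters were found in the searched promoter. Their upstream windows are shown for comparison, with CCAAT letters in capitals.
Ccnb1, chr13:100786487-100786586, minus strand: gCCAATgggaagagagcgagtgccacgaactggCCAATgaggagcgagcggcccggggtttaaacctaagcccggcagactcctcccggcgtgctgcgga
Mad2l1, chr6:66535121-66535220, plus strand: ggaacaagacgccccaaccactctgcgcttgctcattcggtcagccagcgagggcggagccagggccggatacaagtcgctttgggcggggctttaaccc
Nuf2, chr1:169531465-169531564, minus strand: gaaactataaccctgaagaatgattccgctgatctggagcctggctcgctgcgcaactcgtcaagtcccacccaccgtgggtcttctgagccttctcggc
Cenpe, chr3:135212463-135212562, plus strand: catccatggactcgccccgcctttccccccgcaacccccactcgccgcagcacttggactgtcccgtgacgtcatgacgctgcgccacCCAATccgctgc
Birc5, chr11:117849137-117849236, plus strand: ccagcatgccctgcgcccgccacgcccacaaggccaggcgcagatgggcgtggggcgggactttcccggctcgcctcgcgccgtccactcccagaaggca
Pttg1, chr11:43425982-43426081, minus strand: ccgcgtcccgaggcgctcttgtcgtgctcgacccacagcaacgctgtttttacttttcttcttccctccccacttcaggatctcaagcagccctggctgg
Nek2, chr1:191821373-191821472, plus strand: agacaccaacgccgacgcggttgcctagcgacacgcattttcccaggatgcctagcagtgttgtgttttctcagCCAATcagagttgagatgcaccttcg
Ncaph, chr2:127133955-127134054, minus strand: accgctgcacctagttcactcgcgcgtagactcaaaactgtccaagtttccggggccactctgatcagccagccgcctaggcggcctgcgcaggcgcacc
These genes include Ccnb1, Mad2l1 and Birc5, and the absence of these letters says only that they do not occur in the searched window. In the control time course described next, 34 of the 35 genes with CHR letters and 7 of the 8 without them were lower at 24 h, with median log2 fold changes of -0.98 and -0.96.

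In siCtrl cells at 0 h the mitotic genes differed widely in level. Levels per kilobase used all annotated exon bases of a gene, 1868 for Cdc20 and 7461 for Kif11, so their order also depends on the annotation. On this scale Cdc20, which activates the APC/C, was the highest at 115 ± 7.91 CPM per kb (SD, n = 3). It was followed by the DNA topoisomerase Top2a at 81.7 ± 8.6 and the B-type cyclin Ccnb2 at 77.8 ± 12 CPM per kb, and these 2 levels lay within their spread of each other. The lowest were the spindle motor gene Kif11 at 0.32 ± 0.155, the centrosomal kinase gene Nek2 at 1.79 ± 0.309 and the kinesin gene Kif15 at 6.56 ± 1.11 CPM per kb. Whether the few counts of Kif11 and Nek2 reflect little RNA or how reads were aligned and counted cannot be checked from the counts. Their values are therefore not taken as levels of expression. Over all 26 libraries Kif11 lay between 0.613 CPM, with siSMYD3#1 at 24 h, and 7.25 CPM, in vector cells at 0 h, and the lowest count of any of the 52 genes in a library was 11. Across the 18 siRNA libraries, 33 of the 52 genes had a Pearson r above 0.9 between their log2 level and the mean of the other 51, with a median of 0.924. Ccna2 had the highest r, 0.994, and Kif11 (0.275), Nek2 (0.43) and Mki67 (0.56) had the lowest. These values share libraries, time points and extraction, and are given as a description.

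Some of the counts carry reads that could belong elsewhere. Transcripts of Ccnb1, Mad2l1 and Mki67 have copies in the annotation of at least 95% identity over at least 200 bases. The closest copy, Ccnb1-ps, is 99.2% identical to Ccnb1 and its counts came to 2.60% of those of Ccnb1, so reads split between the 2 are uncertain. In the annotation 15 of the 52 genes share exon bases with another gene, 3 on the same strand (Ccnf, Foxm1 and Top2a) and 12 on the opposite strand. The overlap is largest for Kif20a, with 29.3% of its exon bases opposite Cdc23, and for Ube2c, with 22.8% opposite Tnnc2. The libraries were made with a kit that keeps strand, but the strand setting of the counting is not given in the sources used here.

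The control time course showed how the genes behaved when differentiation was induced. Between 0 h and 24 h, 50 of the 52 genes fell in siCtrl cells and 0 rose (edgeR quasi-likelihood test, adjusted p threshold 0.01), where 14.8% of all 15820 genes tested were called lower. The median log2 fold change of the 52 was -0.94, against 0.03 over all genes. Summed over the 52 genes, the level was 7475, 9161 and 8969 CPM in the 3 libraries at 0 h and 4105, 4567 and 4729 CPM at 24 h. Every library at 24 h was below every library at 0 h, and the ratio of the sums was 0.549 between the TRIzol libraries and 0.513 between the NucleoSpin libraries. For 47 of the 52 genes the 3 libraries at 24 h all lay below the 3 at 0 h, where 18.3% of all genes did.

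**Figure D2:**
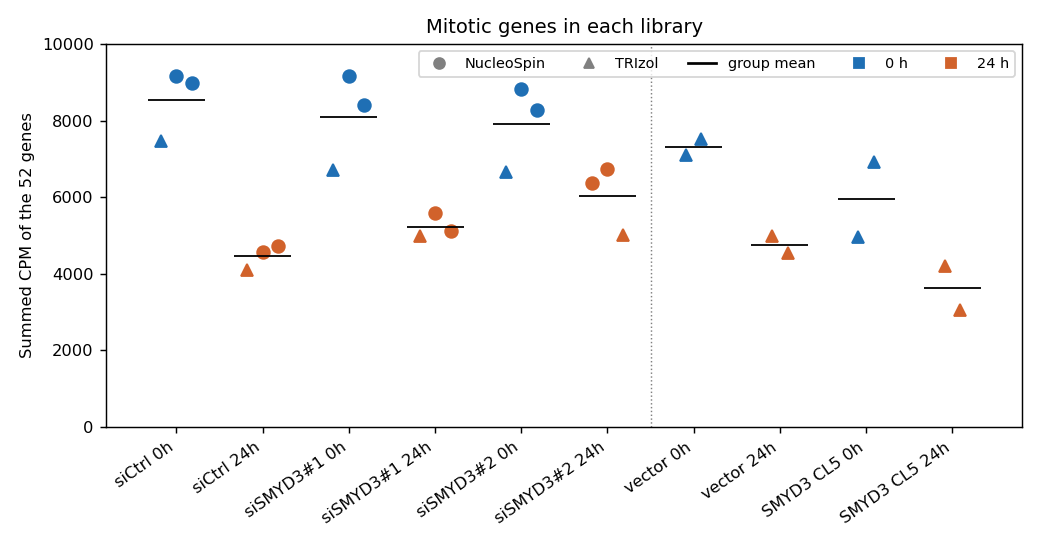
Summed level of the 52 mitotic genes (CPM) in each of the 26 libraries by group; blue is 0 h and orange 24 h, circles are NucleoSpin and triangles TRIzol libraries, horizontal lines are group means, and the dotted line separates the siRNA and overexpression experiments, which were scaled separately. The siCtrl libraries at 24 h lie between 4105 and 4729 CPM, and the siSMYD3#2 libraries at 24 h between 5005 and 6726 CPM.

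All 8 genes of the CDK1 and cyclin group fell, with a median of -0.96. Cdk1, the kinase that drives entry into mitosis, was at 205, 331 and 308 CPM at 0 h and at 95, 117 and 127 CPM at 24 h (log2 fold change -1.30 ± 0.12 (SE), edgeR adjusted p = 1.64e-07). Its cyclin partner Ccnb1 was at 182, 270.1 and 276 CPM and then at 87.9, 97.5 and 111 CPM (log2 fold change -1.27 ± 0.10 (SE), edgeR adjusted p = 3.98e-08). For both genes the groups did not overlap, and the level at 24 h was 40.7% of that at 0 h for Cdk1 and 41.4% for Ccnb1. Foxm1, a transcription factor of G2 genes, was at 145, 161 and 195 CPM at 0 h and 89.5, 90 and 91.2 CPM at 24 h (log2 fold change -0.88 ± 0.13 (SE), edgeR adjusted p = 2.20e-05). The phosphatase Cdc25c, which activates CDK1, was at 31.3, 36 and 35.4 CPM and then at 20, 19.6 and 19.7 CPM (log2 fold change -0.78 ± 0.10 (SE), edgeR adjusted p = 9.02e-06). The smallest falls of the 50 were in this group too. Ccnb2 fell by 0.42 and the phosphatase Cdc25b by 0.41 on the log2 scale, while Ccna2 (-1.05) and Ccnf (-1.13), an F-box protein, also fell.

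Of the kinases that act on centrosomes and spindle poles, Plk1 and Aurka fell and Nek2 did not pass the test. Plk1 was at 135, 120.3 and 132 CPM at 0 h and at 65.9, 58.3 and 59.4 CPM at 24 h (log2 fold change -1.08 ± 0.13 (SE), edgeR adjusted p = 2.69e-06). Aurka, whose product builds bipolar spindles, was at 125, 108 and 110.2 CPM and then at 45.9, 46.9 and 49.6 CPM (log2 fold change -1.27 ± 0.11 (SE), edgeR adjusted p = 1.01e-07). Nek2, with few counts, was at 6.48, 9.11 and 8.61 CPM and at 4.08, 4.29 and 4.11 CPM, groups that did not overlap, but its error was large (log2 fold change -0.93 ± 0.66 (SE), edgeR adjusted p = 0.284).

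All 5 checkpoint genes and all 8 kinetochore and centromere genes fell, with medians of -0.90 and -0.77. The checkpoint kinase Bub1 was at 101, 168 and 154 CPM at 0 h and at 56.2, 80.9 and 88.5 CPM at 24 h (log2 fold change -0.90 ± 0.09 (SE), edgeR adjusted p = 7.81e-07). Bub3, which recruits BUB1 to kinetochores, fell from 146, 164 and 173 CPM to 97.8, 112 and 116 CPM (log2 fold change -0.57 ± 0.08 (SE), edgeR adjusted p = 1.43e-05). The largest fall among them was that of Mad2l1, whose product inhibits CDC20 (log2 fold change -1.28 ± 0.15 (SE), edgeR adjusted p = 2.42e-06). Among kinetochore genes, Ndc80, the microtubule-binding subunit that gives its complex its name, was at 50.6, 101 and 90.7 CPM and then at 33.1, 52.8 and 56.2 CPM (log2 fold change -0.75 ± 0.09 (SE), edgeR adjusted p = 5.29e-06). The Ndc80 groups overlapped by the TRIzol library at 0 h, which was the lowest of its group. Its partners Nuf2, Spc24 and Spc25 changed by -0.98, -0.86 and -0.72 on the log2 scale, and all 3 were called. Cenpf, a large protein of the outer kinetochore, was at 135, 160.4 and 142 CPM at 0 h and 105, 85.4 and 88.8 CPM at 24 h (log2 fold change -0.65 ± 0.10 (SE), edgeR adjusted p = 7.18e-05). Knl1, the scaffold that binds the BUB proteins, the centromeric histone Cenpa and the kinetochore motor Cenpe changed by -1.01, -0.65 and -0.79.

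The chromosomal passenger complex corrects faulty attachments and then acts at the cleavage site, and all 4 of its genes fell, with log2 fold changes from -0.92 to -1.02. Its kinase Aurkb was at 74.4, 107 and 117 CPM at 0 h and 37.9, 58.6 and 53.9 CPM at 24 h (log2 fold change -0.98 ± 0.10 (SE), edgeR adjusted p = 4.77e-07). The scaffold gene Incenp was at 173, 142 and 162 CPM and 82.9, 87 and 81.8 CPM (log2 fold change -0.92 ± 0.12 (SE), edgeR adjusted p = 5.94e-06). In neither gene did the groups overlap.

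Of the 8 kinesins, 7 fell, with a median of -0.97 over the 8. Kif20a, a motor of the midzone in cytokinesis, was at 217, 191 and 211 CPM at 0 h and 121, 91.2 and 98.9 CPM at 24 h (log2 fold change -1.0 ± 0.09 (SE), edgeR adjusted p = 1.40e-07). Kif11, which slides spindle poles apart, was at 2.1, 3.66 and 1.41 CPM and 0.739, 2.72 and 6.47 CPM and was not called (log2 fold change 0.27 ± 0.54 (SE), edgeR adjusted p = 0.727). The Kif11 libraries at 24 h spanned those at 0 h, and its SE of 0.54 on the log2 scale was large beside the changes of the other kinesins. The 6 spindle and cytokinesis genes all fell, with a median of -0.94. Among them Prc1, which bundles midzone microtubules, was at 152, 218 and 208 CPM and then at 77.6, 111 and 115 CPM (log2 fold change -0.93 ± 0.08 (SE), edgeR adjusted p = 6.39e-08).

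The 4 genes of anaphase all fell, with a median of -1.05. Cdc20 was at 219.8, 198 and 227 CPM at 0 h and at 114, 99.7 and 96.6 CPM at 24 h (log2 fold change -1.06 ± 0.11 (SE), edgeR adjusted p = 9.38e-07). Ube2c, the E2 enzyme that works with the APC/C, was at 136, 196 and 187 CPM and 68.7, 96.1 and 86.6 CPM (log2 fold change -1.04 ± 0.11 (SE), edgeR adjusted p = 4.72e-07). The separase Espl1, which cuts cohesin at anaphase, and the securin Pttg1, which inhibits it, changed by -1.16 and -0.65.

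All 6 genes of chromosome structure fell, with a median of -0.89. The condensin subunit Smc2 showed the largest change of the 52 genes, from 149, 279 and 237 CPM to 65.4, 95.3 and 98 CPM (log2 fold change -1.34 ± 0.17 (SE), edgeR adjusted p = 8.69e-06), while its partner Smc4 changed by -0.79. Top2a, which untangles sister chromatids, was at 653, 805 and 752 CPM at 0 h and 308, 396 and 417 CPM at 24 h (log2 fold change -0.99 ± 0.08 (SE), edgeR adjusted p = 7.12e-08). Mki67, the coat of mitotic chromosomes that is used as a proliferation marker, was at 559.8, 448 and 433 CPM and 343, 269 and 272 CPM (log2 fold change -0.70 ± 0.08 (SE), edgeR adjusted p = 1.87e-06). In all 3 genes the groups did not overlap.

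**Figure D3:**
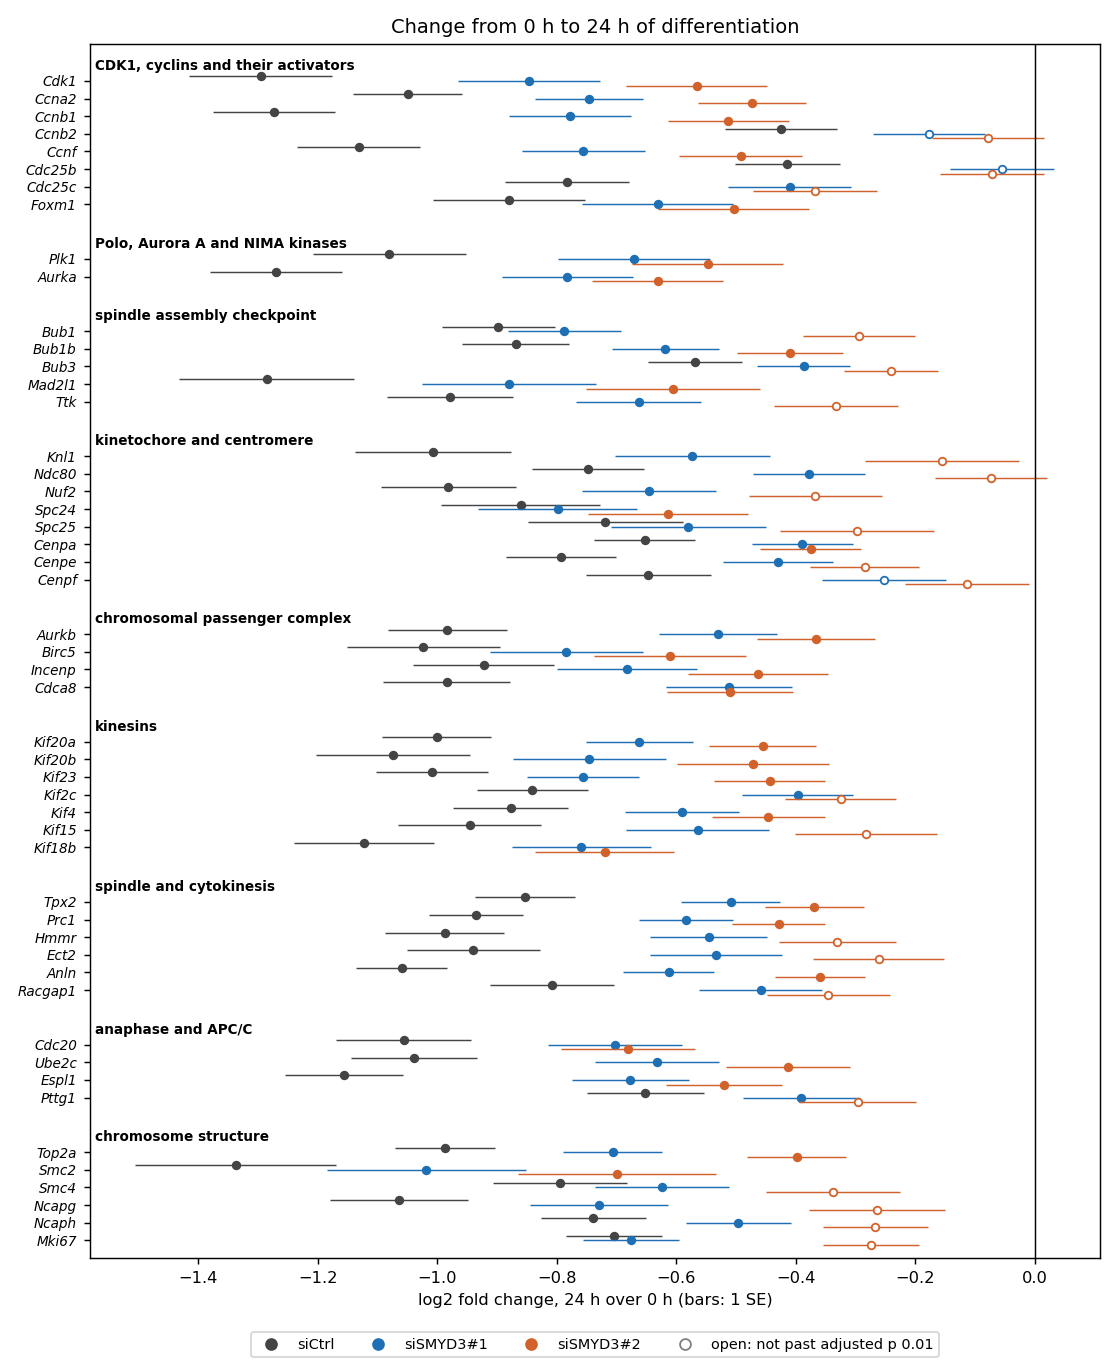
Log2 fold change from 0 h to 24 h (x axis, bars 1 SE) of 50 mitotic genes grouped by role, in siCtrl (grey), siSMYD3#1 (blue) and siSMYD3#2 (orange); filled points passed adjusted p 0.01, and Kif11 and Nek2, whose errors were over 0.5, are left out. The grey points lie between -1.34 and -0.41, the blue points between -1.02 and -0.05 and the orange points between -0.72 and -0.07.

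With the SMYD3 siRNAs the same genes also fell over 24 h. With siSMYD3#1, 47 of the 52 fell and 0 rose, where 12.7% of all genes were called lower, and the median was -0.63. With siSMYD3#2, 28 fell and 0 rose, where 9.88% of all genes were called lower, and the median was -0.39. By sign, all 52 genes were negative in both time courses. The 3 libraries at 24 h lay below the 3 at 0 h for 32 genes with siSMYD3#1, where 16.5% of all genes did, and for 18 genes with siSMYD3#2, where 14.4% did. Cdk1 was at 180.1, 300.4 and 288 CPM at 0 h and 133, 151 and 129 CPM at 24 h with siSMYD3#1 (log2 fold change -0.85 ± 0.12 (SE), edgeR adjusted p = 2.77e-05). With siSMYD3#2 it was at 165, 289.8 and 269 CPM and 177, 188 and 120.3 CPM (log2 fold change -0.57 ± 0.12 (SE), edgeR adjusted p = 0.00138). In the last group the TRIzol library was the lowest at both times, and within NucleoSpin libraries the groups did not overlap. Ndc80 was among the genes with the smallest change with siSMYD3#2, at 44.7, 96.4 and 85.8 CPM at 0 h and 86.8, 87 and 42.3 CPM at 24 h (log2 fold change -0.07 ± 0.09 (SE), edgeR adjusted p = 0.585), and these groups overlapped. The cyclin Ccnb2 and the phosphatase Cdc25b were called in neither siRNA time course, with changes between -0.18 and -0.05. Smc2 again fell among the most, by 1.02 with siSMYD3#1 and by 0.70 with siSMYD3#2 on the log2 scale, and the kinesin gene Kif18b by 0.72 with siSMYD3#2. By role, siSMYD3#2 cells showed a fall in 2 of 8 kinetochore genes, 2 of 5 checkpoint genes and 2 of 6 chromosome structure genes, and in all 4 passenger complex genes. The count with siSMYD3#2 was 18 without library 2 at 0 h and 15 without library 3 at 24 h.

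At 24 h, mitotic genes from every role were higher with siSMYD3#2 than with siCtrl, and fewer were with siSMYD3#1. With siSMYD3#2, 25 of the 52 were higher and 0 lower, where 1.66% of all genes were called higher, with a median log2 fold change of 0.40 (all genes, -0.0037). With siSMYD3#1, 6 were higher and 0 lower, where 2.91% of all genes were called higher, with a median of 0.22 (all genes, -0.0005). By sign, 50 and 49 of the 52 were positive. Both comparisons use the same 3 siCtrl libraries, so they are not independent of each other. The 3 siRNA libraries all lay above the 3 siCtrl libraries for 25 genes with siSMYD3#2, where 8.3% of all genes did, and for 12 genes with siSMYD3#1, where 7.23% did. The summed level of the 52 genes at 24 h was 4105, 4567 and 4729 CPM with siCtrl, 4978, 5602 and 5128 CPM with siSMYD3#1, and 6375, 6726 and 5005 CPM with siSMYD3#2. All siRNA libraries were above all siCtrl libraries, and the lowest siSMYD3#2 library was the TRIzol one. Within TRIzol libraries the ratio to siCtrl was 1.21 with siSMYD3#1 and 1.22 with siSMYD3#2, and within NucleoSpin libraries 1.15 and 1.41.

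**Figure D4:**
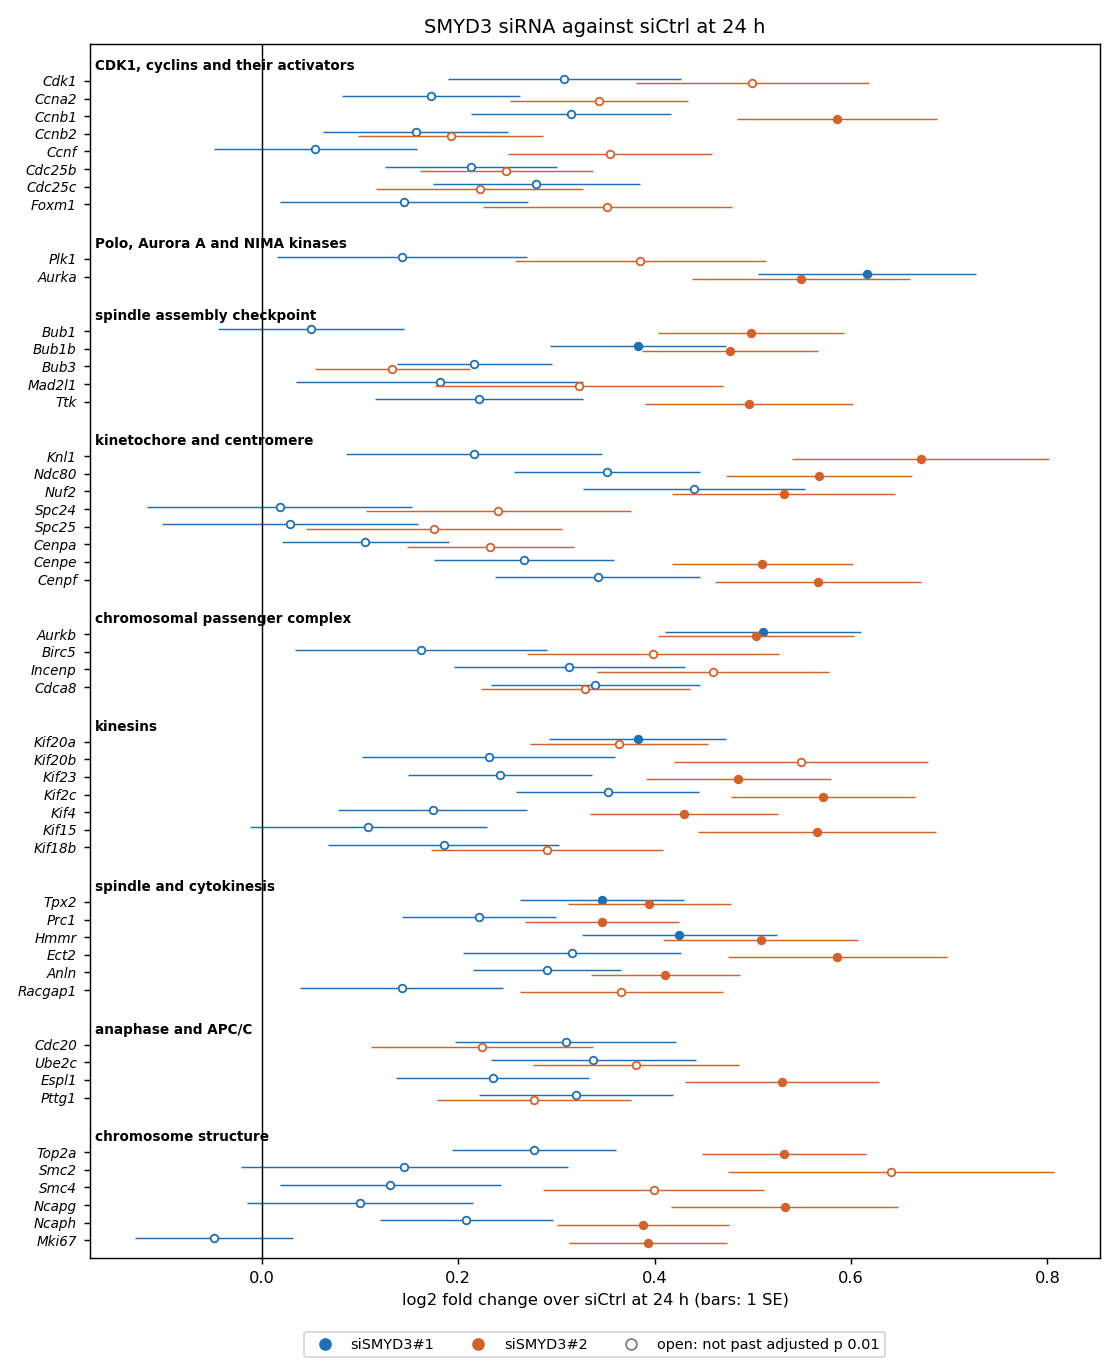
Log2 fold change over siCtrl at 24 h (x axis, bars 1 SE) of 50 mitotic genes by role for siSMYD3#1 (blue) and siSMYD3#2 (orange); filled points passed adjusted p 0.01, and Kif11 and Nek2 are left out. Every gene shown is above 0 except Mki67 with siSMYD3#1 at -0.05, and the 2 siRNAs share the siCtrl libraries.

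The 6 genes higher with siSMYD3#1 were Aurka, Aurkb, Hmmr, Kif20a, Bub1b and Tpx2, with changes between 0.35 and 0.62. They include both Aurora kinases, the Aurora A activator Tpx2, the spindle protein Hmmr and the checkpoint protein Bub1b. Aurka was at 80.8, 74.4 and 62.6 CPM with siSMYD3#1 (log2 fold change 0.62 ± 0.11 (SE), edgeR adjusted p = 0.00104) against 45.9, 46.9 and 49.6 CPM with siCtrl. Aurkb was at 58.4, 83.6 and 69.9 CPM (log2 fold change 0.51 ± 0.10 (SE), edgeR adjusted p = 0.00209) against 37.9, 58.6 and 53.9 CPM, and Kif20a at 158, 130.4 and 117 CPM (log2 fold change 0.38 ± 0.09 (SE), edgeR adjusted p = 0.00851) against 121, 91.2 and 98.9 CPM. For Aurka the groups did not overlap, and for Aurkb and Kif20a they overlapped by 1 library, although the TRIzol and the NucleoSpin libraries of siSMYD3#1 were each above those of siCtrl. At the other end, Spc24, Spc25 and Mki67 differed least from siCtrl, with changes of 0.02 ± 0.13, 0.03 ± 0.13 and -0.05 ± 0.08 (SE). Kif11 had the largest difference by size, at 0.613, 0.689 and 0.778 CPM against 0.739, 2.72 and 6.47 CPM, groups that overlapped by the TRIzol siCtrl library, and it did not pass the test (log2 fold change -2.01 ± 0.62 (SE), edgeR adjusted p = 0.0485). Kif11 was called lower by DESeq2 (DESeq2 adjusted p = 0.00394) and by edgeR without the filter on low counts (edgeR adjusted p = 4.61e-08). Nek2, also with few counts and also called lower without that filter, had a log2 fold change of -1.08 ± 0.73 (SE, edgeR adjusted p = 0.42). The count of 6 changed with the libraries used. It was 2 without siCtrl library 2, 1 without siCtrl library 3, 2 without siSMYD3#1 library 1 and 1 without siSMYD3#1 library 2. The shares of all genes called in these fits are not given here. Fewer calls over all genes therefore cannot be told apart from a change in these genes. Blocking on the replicate number gave 3, without Bub1b, Kif20a and Tpx2. By sign, 40 of the 52 genes were positive and 12 negative without siSMYD3#1 library 1. With each of the other libraries of the comparison left out, 46 to 50 were positive.

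With siSMYD3#2 the genes called higher were spread over all roles. They were 5 of the 8 kinetochore genes (Knl1, Ndc80, Nuf2, Cenpe and Cenpf), 5 of the 6 spindle and cytokinesis genes (Tpx2, Prc1, Hmmr, Ect2 and Anln), 4 of 8 kinesins (Kif23, Kif2c, Kif4 and Kif15), 4 of 6 chromosome structure genes (Top2a, Ncapg, Ncaph and Mki67) and 3 of 5 checkpoint genes (Bub1, Bub1b and Ttk). The other 4 were Aurka, Aurkb, the separase Espl1 and, alone of the 8 genes of the CDK1 and cyclin group, Ccnb1. Knl1 showed the largest called change, at 74.2, 78.1 and 57.4 CPM against 34.7, 46.1 and 51.6 CPM (log2 fold change 0.67 ± 0.13 (SE), edgeR adjusted p = 0.0032). Ccnb1 was at 169, 176 and 109 CPM against 87.9, 97.5 and 111 CPM (log2 fold change 0.59 ± 0.10 (SE), edgeR adjusted p = 0.00135), and Bub1 at 123, 127 and 72.7 CPM against 56.2, 80.9 and 88.5 CPM (log2 fold change 0.50 ± 0.09 (SE), edgeR adjusted p = 0.00267). For Knl1 all siSMYD3#2 libraries were above all siCtrl libraries, and for Ccnb1 and Bub1 the TRIzol library, library 3, lay below at least 1 NucleoSpin library of siCtrl and above its TRIzol library. Ndc80 was at 86.8, 87 and 42.3 CPM against 33.1, 52.8 and 56.2 CPM (log2 fold change 0.57 ± 0.10 (SE), edgeR adjusted p = 0.00101), Cenpf at 125, 142 and 146 CPM against 105, 85.4 and 88.8 CPM (log2 fold change 0.57 ± 0.10 (SE), edgeR adjusted p = 0.00216), and Top2a at 578, 633 and 417 CPM against 308, 396 and 417 CPM (log2 fold change 0.53 ± 0.08 (SE), edgeR adjusted p = 6.32e-04). The groups did not overlap for Cenpf and Top2a, though library 3 of siSMYD3#2 and the highest siCtrl library were nearly level for Top2a, and they overlapped by that library for Ndc80.

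Other genes that are given by library did not pass the test with siSMYD3#2, though nearly all were above siCtrl by sign. Cdk1 was at 177, 188 and 120.3 CPM (log2 fold change 0.50 ± 0.12 (SE), edgeR adjusted p = 0.0121) and Plk1 at 83, 83.9 and 72.3 CPM against 65.9, 58.3 and 59.4 CPM (log2 fold change 0.39 ± 0.13 (SE), edgeR adjusted p = 0.068). Foxm1 was at 113, 125 and 108 CPM against 89.5, 90 and 91.2 CPM (log2 fold change 0.35 ± 0.13 (SE), edgeR adjusted p = 0.0937), and Incenp at 120.0, 125 and 101 CPM against 82.9, 87 and 81.8 CPM (log2 fold change 0.46 ± 0.12 (SE), edgeR adjusted p = 0.0198). In each of these 4 genes the siSMYD3#2 TRIzol library, library 3, was the lowest of its group. Cdc20, Cdc25c, Kif20a and Ube2c had changes of 0.22, 0.22, 0.36 and 0.38, with edgeR adjusted p-values of 0.255, 0.225, 0.0163 and 0.029. The smallest differences were those of Bub3 (0.13), Spc25 (0.18) and Ccnb2 (0.19), and Smc2 missed the threshold with a change of 0.64 ± 0.17 (SE, edgeR adjusted p = 0.0239). Kif11 was at 0.91, 0.981 and 1.06 CPM, below 2 of the 3 siCtrl libraries and above the third (log2 fold change -1.45 ± 0.60 (SE), edgeR adjusted p = 0.164). Without the filter on low counts it was called lower (log2 fold change -1.42, edgeR adjusted p = 2.9e-04), and DESeq2 did not call it (DESeq2 adjusted p = 0.0604).

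The count with siSMYD3#2 changed with the libraries used while the direction did not. It was 2 without siCtrl library 2, 7 without siCtrl library 3, 7 without siSMYD3#2 library 1, 1 without library 2 and 16 without library 3. In each of these the median stayed between 0.38 and 0.46 and 50 or 51 of the 52 genes were positive. The shares of all genes called in these fits are not given here, so fewer calls over all genes cannot be told apart. Blocking on the replicate number gave 21, without Kif4, Ncapg, Ncaph and Prc1. Without extraction in the model, 0 genes were called with either siRNA, and with NucleoSpin libraries alone, 7 were called higher with siSMYD3#1, where 5.63% of all genes were, and 36 with siSMYD3#2, where 3.26% were.

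At 0 h, before differentiation was induced, no mitotic gene was called with either siRNA by edgeR at the threshold. With siSMYD3#1 the median was -0.09 and 43 of the 52 were negative, where 1.43% of all genes were called in either direction. Of the 52, 4 had an unadjusted p under 0.05, where 13.9% of all genes did, and DESeq2 called 0. With siSMYD3#2 the median was -0.11 and 46 were negative, where 0.531% of all genes were called. Of the 52, 7 had an unadjusted p under 0.05, where 10.1% of all genes did, and DESeq2 called 1. Cdk1 at 0 h was at 205, 331 and 308 CPM with siCtrl, 180.1, 300.4 and 288 CPM with siSMYD3#1 and 165, 289.8 and 269 CPM with siSMYD3#2. The TRIzol library was the lowest in every group, and the groups overlapped. Top2a differed by -0.0039 ± 0.08 (SE) with siSMYD3#1, and Incenp by 0.0001 ± 0.12 (SE) with siSMYD3#2 on the log2 scale, among the smallest differences of the 52. The largest with enough counts were Ccnf with siSMYD3#1 (log2 fold change -0.32 ± 0.10 (SE), edgeR adjusted p = 0.0983) and Mad2l1 with siSMYD3#2 (log2 fold change -0.36 ± 0.14 (SE), edgeR adjusted p = 0.359). The summed levels overlapped those of siCtrl, at 6716, 9171 and 8399 CPM with siSMYD3#1 and 6669, 8827 and 8266 CPM with siSMYD3#2. The ratio to siCtrl was 0.898 and 0.892 within TRIzol libraries, and 0.969 and 0.943 within NucleoSpin libraries.

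Whether the fall over 24 h differed from that of siCtrl was tested as the difference between the changes. The difference was positive, that is a smaller fall, for 50 of the 52 genes with siSMYD3#1 (median 0.34) and for 51 with siSMYD3#2 (median 0.52), but edgeR called 0 with either. Of all genes, 0.215% were called in either direction with siSMYD3#1 and 0.019% with siSMYD3#2. At an unadjusted p under 0.05 there were 32 of the 52 with siSMYD3#1, where 8.77% of all genes passed, and 49 with siSMYD3#2, where 10% did. DESeq2 called 1 and 18, where it called 0.927% and 0.85% of all genes. Knl1 and Ncapg, a condensin subunit, had the largest differences with siSMYD3#2 (0.85 ± 0.18 and 0.80 ± 0.16, SE), with edgeR adjusted p-values of 0.0573 and 0.0519. Anln, an actin-binding protein of the cleavage furrow, came nearest to the threshold (log2 fold change 0.70 ± 0.11 (SE), edgeR adjusted p = 0.0106). Anln was chosen after its p was seen. With siSMYD3#1 the largest differences after that of Kif11 were those of Ccnb1 (0.49 ± 0.14, SE) and Aurka (0.49 ± 0.15, SE).

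The 2 siRNAs were also set against each other directly at 24 h. Bub1 and Mki67 were higher with siSMYD3#2 than with siSMYD3#1 and 0 genes were lower, where 1.31% of all genes were called higher, and the median was 0.21, with 44 of 52 genes positive. Bub1 was at 56.5, 94.8 and 83.1 CPM with siSMYD3#1 and 123, 127 and 72.7 CPM with siSMYD3#2 (log2 fold change 0.45 ± 0.09 (SE), edgeR adjusted p = 0.00618). Mki67 was at 341, 281 and 235 CPM and 342, 355 and 468 CPM (log2 fold change 0.44 ± 0.08 (SE), edgeR adjusted p = 0.0021). For Mki67 the groups did not overlap, and for Bub1 the TRIzol library of siSMYD3#2 lay below the NucleoSpin libraries of siSMYD3#1. Aurkb was nearly level between the siRNAs, at 58.4, 83.6 and 69.9 CPM and 82.2, 89.3 and 46 CPM, with a difference of -0.01 ± 0.10 (SE), as were Cdca8 of the same complex (-0.01 ± 0.11) and Kif20a (-0.02 ± 0.09). The count of 2 was 5 without siSMYD3#1 library 1, 1 without its library 2, 0 without its library 3, 1 without siSMYD3#2 library 1 and 0 without its library 2 or 3.

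Many of the 52 genes also differed between the TRIzol and the NucleoSpin series. In the 18 siRNA libraries, 30 of the 52 genes were lower and 1, Mki67, was higher in TRIzol than in NucleoSpin libraries with the groups in the model, where 25.3% of all genes were lower and 26.1% higher, and the median was -0.36. Ncapg and Spc25 differed most among called genes, by -1.06 ± 0.07 and -0.92 ± 0.08 (SE), and Mki67 by 0.35 ± 0.05 (SE, edgeR adjusted p = 4.68e-06). Cenpf, Incenp and Aurka differed least (-0.01, -0.02 and 0.02).

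Genes of related programmes, from lists of their own, were set beside the 52. In siCtrl cells over 24 h, 14.8% of all genes were called lower and 14.6% higher. There, 60 of 64 other G2 and M phase genes fell and 0 rose (median -0.91), led by the checkpoint ATPase Trip13 (-1.72) and the APC/C inhibitor Fbxo5 (-1.55), which the APC/C list also holds. Of 39 S phase genes 38 fell (median -1.29), the largest changes being those of Ccne2 (-2.14) and the licensing factor Cdc6 (-2.06). Of 17 core subunits and inhibitors of the APC/C, 1 rose and 4 fell (median -0.24), and 6 of 11 cohesin genes fell (median -0.34). Of 17 DREAM and MuvB regulators, 10 fell and 2 rose (median -0.49). Mybl2, the B-MYB gene, was at 95.6, 82 and 83.3 CPM at 0 h and 22.1, 23.9 and 23.6 CPM at 24 h (log2 fold change -1.91 ± 0.19 (SE), edgeR adjusted p = 8.18e-07), and E2f1 changed by -0.56. Of 13 genes of cell cycle exit and p53 targets tested, 7 rose and 3 fell, with Cdkn1c (2.94) the largest rise. Cdkn1a, the CDK inhibitor p21, was at 322, 216 and 234 CPM and then at 596, 622 and 669 CPM (log2 fold change 1.32 ± 0.14 (SE), edgeR adjusted p = 1.22e-06). Of 12 myoblast and early myotube genes 9 rose, with Myog, the factor that starts myotube formation, changing by 7.25 and the embryonic myosin Myh3 by 9.57.

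At 24 h the same lists were compared between siRNAs and siCtrl. With siSMYD3#2, 9 of the 64 other G2 and M phase genes were higher and 0 lower (median 0.40), including Cdca2 (0.67) and the kinesin gene Kif14 (0.65), and 4 of 39 S phase genes were higher (median 0.39), including Mcm10 (0.71) and Pola1 (0.69). Of all genes, 1.66% were called higher and 2.04% lower with siSMYD3#2. With siSMYD3#1, 3 of the 64 were higher and 0 lower (median 0.18), including Cit (0.59) and Cdca2 (0.47). Of the 39 S phase genes, 0 were higher and 0 lower (median 0.13). With this siRNA 2.91% of all genes were called higher and 2.94% lower, so the 3 of 64 lay near the share over all genes. Cdkn1a was at 331, 330.2 and 438 CPM with siSMYD3#2, lower than siCtrl (log2 fold change -0.80 ± 0.14 (SE), edgeR adjusted p = 0.00156), and at 418, 469 and 435 CPM with siSMYD3#1, where it missed the threshold (log2 fold change -0.51 ± 0.14 (SE), edgeR adjusted p = 0.0232). Of the 12 myoblast and early myotube genes, 7 were lower with siSMYD3#1 and 6 with siSMYD3#2, with medians of -2.10 and -1.55. Myog was among them, with changes of -3.59 and -1.81. The part of these other genes in the levels of the mitotic genes was not tested. In separate experiments the study measured proliferation with an EdU assay. It found similar shares of EdU-positive cells in knockdown and control, both in growth medium and after 24 h in differentiation medium. The study also reported no effect of knockdown on p21 or cyclin D1 protein. The values here are mRNA levels, a different measure from either.

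In the overexpression experiment the mitotic genes were lower at 24 h by direction, but the spread between libraries was larger and no gene of the 52 was called in any comparison when the 8 libraries were fitted together. The median biological coefficient of variation of the 52 genes was 0.242, against 0.0942 in the siRNA fit. In vector cells all 52 changes were negative (median -0.63), and edgeR and DESeq2 called 0, where edgeR called 0% of all 17835 genes. At an unadjusted p under 0.05 there were 18, where 7.04% of all genes passed. Fitted on the 4 vector libraries alone, 28 were called lower, where 1.67% of all genes were. In SMYD3 CL5, 51 were negative (median -0.74), and both tools called 0, where edgeR again called 0% of all genes. At an unadjusted p under 0.05 there were 30, where 6.38% of all genes passed. Both vector libraries at 24 h lay below both at 0 h for all 52 genes, where 30.8% of all genes did, and in SMYD3 CL5 this held for 42 genes, where 11.3% did. The summed level was 7114 and 7518 CPM in vector cells at 0 h and 4982 and 4532 CPM at 24 h. In SMYD3 CL5 it was 4970 and 6921 CPM at 0 h and 4200 and 3066 CPM at 24 h, so the libraries at 24 h were below those at 0 h in both lines. The ratio of 24 h to 0 h was 0.65 in vector cells and 0.611 in SMYD3 CL5.

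**Figure D5:**
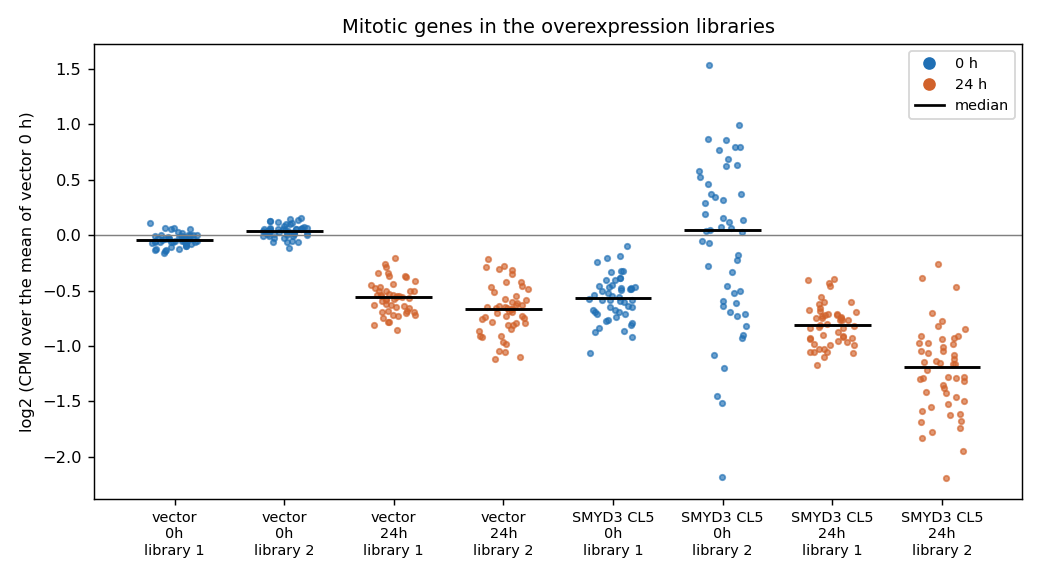
Log2 level of 50 mitotic genes (points; Kif11 and Nek2 left out) in each overexpression library relative to the mean of the vector libraries at 0 h; blue is 0 h, orange 24 h, and black lines are medians over genes. In SMYD3 CL5 library 2 at 0 h the points spread on both sides of 0, while the other libraries of that line lie mostly below 0.

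SMYD3 CL5 was compared with vector cells at each time. All SMYD3 CL5 libraries come from a single clone, and the study's methods state that vector cells were sub-cloned too. Clone and SMYD3 overexpression therefore cannot be told apart in these libraries. For differentiation, the study addressed clonal effects in separate experiments by silencing SMYD3 in the overexpressing cells. At 24 h the median was -0.38, 49 of 52 genes were negative, and edgeR and DESeq2 called 0, where edgeR called 0.964% of all genes. At an unadjusted p under 0.05 there were 3 (Ccnb1, Kif20a and Anln), where 14% of all genes passed. Ccnb1 was at 93.5 and 89.9 CPM in vector cells and 66.4 and 42.1 CPM in SMYD3 CL5 (log2 fold change -0.76 ± 0.28 (SE), edgeR adjusted p = 0.268). Kif20a was at 129 and 124 CPM and 99.5 and 74.6 CPM (log2 fold change -0.54 ± 0.22 (SE), edgeR adjusted p = 0.315), and in both genes the groups did not overlap. Both SMYD3 CL5 libraries lay below both vector libraries for 38 genes and above for 1, where 26.8% of all genes lay below.

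At 0 h the median was -0.24, 38 genes were negative, and edgeR and DESeq2 called 0, where edgeR called 1.07% of all genes. At an unadjusted p under 0.05 there were 10, where 18.3% of all genes passed. Both SMYD3 CL5 libraries lay below both vector libraries for 24 genes, where 27% of all genes did. The 2 SMYD3 CL5 libraries at 0 h stood apart from each other: 16 of the 52 genes were over 2-fold apart between them, 13 higher and 3 lower in library 2, against 0 between the vector libraries at 0 h. Cdk1 was at 209.8 and 406 CPM in them and at 216 and 233 CPM in vector cells, and Cdc20 was at 81.1 and 306 CPM and 154 and 153 CPM. Knl1 went the other way, at 63 and 20.2 CPM in SMYD3 CL5 and 88.4 and 95.2 CPM in vector cells. Without library 1, SMYD3 CL5 at 0 h was a single library, library 2, which that fit assumes to vary like the libraries of the other groups. In it 6 genes were called higher than vector, where 5.72% of all genes were, and the median turned to 0.09. In the SMYD3 CL5 time course 21 were then called lower with a median of -0.98, where 2.67% of all genes were. Anln, which had the lowest p at 0 h, was at 192 and 128 CPM in SMYD3 CL5 and 344 and 358 CPM in vector cells (log2 fold change -1.13 ± 0.32 (SE), edgeR adjusted p = 0.111). The difference between the 2 time courses had a median of -0.09 with 22 genes positive, and edgeR and DESeq2 called 0, where edgeR called 0% of all genes. At an unadjusted p under 0.05 there were 0, where 1.75% of all genes passed. Its median was 0.20 without library 2 of SMYD3 CL5 at 0 h and 0.11 without library 2 at 24 h.

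Outside the 52 genes, those whose levels followed the mean of the mitotic genes most closely over the 18 siRNA libraries were Mcm8 (Pearson r 0.991), Melk (0.988), Fbxo5 (0.985), Chek1, Rad51ap1, Ezh2, Sgo1, Ncapg2, Cdc45 and Tex30 (0.98). They include the helicase gene Mcm8, the mitotic kinase Melk, the checkpoint kinase Chek1, the cohesin protector Sgo1 and the condensin subunit Ncapg2. The correlations are a description over libraries that share time point and extraction.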

How the data were processed

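PolyA RNA of C2C12 cells was sequenced by the authors from 26 TruSeq Stranded libraries. As the study's methods state, reads were checked with FastQC (0.11.5), aligned to GRCm38 with HISAT2 (2.1.0) and counted per gene with featureCounts (Subread 1.6.3), and the deposited values are raw counts without normalization. Reads that could come from a copy or from the opposite strand are therefore already assigned. Of the 55341 gene IDs, 54495 had a symbol in GENCODE M21, and 0 pairs of libraries were identical.

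Tests were made with edgeR 4.0.16 (R 4.3.3) after filterByExpr and TMM scaling, by a robust quasi-likelihood fit whose p-values were adjusted by Benjamini-Hochberg across every gene that passed the filter, and 0.01 was the threshold. For the siRNA experiment 18 libraries in 6 groups were fitted together with extraction as a covariate (15820 genes), and for the overexpression experiment 8 libraries in 4 groups, all TRIzol (17835 genes). Levels are CPM, and a standard error is the log2 fold change divided by the square root of F. The study used DESeq2 with condition and extraction, and DESeq2 1.42.0 was an alternative here. Other alternatives were 2 other scalings, no filter on low counts, a threshold of 0.05, no extraction covariate, NucleoSpin libraries alone, only the groups compared, all 26 libraries, the replicate number as a block and leaving out each library. The scripts were checked on simulated data. The number of a library is only its name.

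Whether libraries with the same replicate number in the study's sample table were paired was checked from the correlation of their deviations from the group means. In the siRNA comparisons every pair had an r between 0.455 and 0.898. There, 1 of the numbers is the TRIzol series, so extraction can give such values whether or not libraries were paired. Within NucleoSpin libraries r lay between -0.089 and 0.337. The check could not decide the pairing, and the replicate number was used as a block only as an alternative. The study calls the libraries biological replicates.

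Named genes were any of the 52, with values by library for 18 chosen ones and for the 3 largest and 3 smallest changes of a comparison. Of the other lists they were Smyd3, Myog, Mybl2, Cdkn1a, E2f1 and the 2 largest called changes of a list. The 52 genes and all other lists were chosen with earlier results of these data known.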

Additional observations from a re-analysis of the deposited data

Results flagged for a closer look

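The effects of the 2 SMYD3 siRNAs at 24 h differed for 2 of the 52 genes when they were tested against each other directly. The difference between siSMYD3#2 and siSMYD3#1 was 0.45 ± 0.09 (SE) on the log2 scale for Bub1 (edgeR adjusted p = 0.00618) and 0.44 ± 0.08 (SE) for Mki67 (edgeR adjusted p = 0.0021). For Mki67, siSMYD3#1 differed from siCtrl by -0.05 and siSMYD3#2 by 0.39. Mki67 was also the 1 gene of the 52 that was higher in TRIzol than in NucleoSpin libraries. Bub1 differed from siCtrl by 0.05 and 0.50. Groups of 2 or 3 libraries were too small for a check of single libraries against their group.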

How the results depend on the processing

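Single genes were followed under the alternatives in 4 comparisons: siCtrl over time, each siRNA against siCtrl at 24 h, and SMYD3 CL5 against vector at 24 h. In these no called gene of the 52 reversed direction. Reversals of single genes were not checked in the other comparisons. The fall in siCtrl was called for 48 to 50 genes when single libraries were left out, for 50 with NucleoSpin libraries alone or DESeq2, for 51 without the filter on low counts and for 33 without the extraction covariate. That setting gave 15 and 4 genes in the siSMYD3#1 and siSMYD3#2 time courses, and 0 for siSMYD3#1 against siCtrl at 24 h, siSMYD3#2 against siCtrl at 24 h and the siRNAs against each other. Leaving out single libraries gave 39 to 47 and 15 to 30 for the 2 siRNA time courses, 1 to 8 for siSMYD3#1 and 1 to 18 for siSMYD3#2 against siCtrl at 24 h, 0 to 5 between the siRNAs, 0 to 2 for the change under siSMYD3#2 against that of siCtrl, 0 to 21 for the SMYD3 CL5 time course and 0 to 6 for SMYD3 CL5 against vector at 0 h. An overexpression group that loses a library holds 1, assumed to vary like the other groups, and the 21 and the 6 rest on library 2 of SMYD3 CL5 at 0 h alone. The 2 for the siSMYD3#2 change were reached without siCtrl 24 h library 1 and without siSMYD3#2 24 h library 3. For siSMYD3#1 at 24 h, a threshold of 0.05 gave 15 higher and 1 lower, total counts 2, the replicate block 3, DESeq2 11 higher and 1 lower (Kif11), and no filter 6 higher and 2 lower (Kif11 and Nek2). For siSMYD3#2 at 24 h, total counts gave 17, DESeq2 31 and only the groups compared 37. No filter gave 30, among them Kif11 as lower. At 0 h siSMYD3#1 had 1 call without the filter and 2 with only the groups compared, and siSMYD3#2 had 1 with DESeq2. Between the siRNAs the counts were 5 at 0.05, 6 without the filter, 4 with DESeq2, 0 with only the groups compared and 9 with NucleoSpin libraries alone. For the change under siSMYD3#2 against that of siCtrl they were 3 at 0.05, 16 without the filter, 18 with DESeq2 and 7 with NucleoSpin libraries alone, and for siSMYD3#1 1 with DESeq2. In vector cells 28 were called with only the groups compared and 3 with all 26 libraries, in the SMYD3 CL5 time course 3 without the filter and 4 with all 26 libraries, and for SMYD3 CL5 against vector at 0 h 6 with all 26 libraries. The share of all genes called moved with the setting too. For siSMYD3#1 against siCtrl at 24 h, 2.91% were called higher in the main fit and 5.63% with NucleoSpin libraries alone. For the change under siSMYD3#2 against that of siCtrl, edgeR called 0.019% and DESeq2 0.85%. A larger count of mitotic genes can therefore go with more calls over all genes, and a smaller count with fewer. The cause was not tested in these cases. For most other settings, here and in the sections above, the share of all genes called is not given. Those counts alone do not show a change particular to the mitotic genes. Blocking on the replicate number changed calls in the siRNA comparisons as given in the report (3 for siSMYD3#1 and 21 for siSMYD3#2 at 24 h, 50 in siCtrl over time) and moved no count other than that of siSMYD3#1 at 24 h by over 1.5 times. In the overexpression libraries same-numbered pairs had r of 0.0089 (vector over time), 0.546 (SMYD3 CL5 over time), 0.153 and -0.0574 (SMYD3 CL5 against vector at 0 h and 24 h), and the block called 0. Scaling by total counts in place of TMM split the calls of all genes at 24 h into 347 higher and 610 lower with siSMYD3#1 (TMM, 461 and 465) and 202 and 397 with siSMYD3#2 (TMM, 263 and 323). Low counts limit Kif11 and Nek2, and 2 libraries per group limit the overexpression comparisons.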
